A study of Mus musculus with 6 samples.

Results

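The genes described here belong to the interleukin 6 cytokine pathway: the ligand genes Il6 and Lif, the receptor genes Il6ra, Il6st, Osmr and Lifr, the transcription factor gene Stat3, and the feedback inhibitor genes Socs2, Socs3 and Cish. These 10 genes were picked by gene name from the 18005 gene symbols in the deposited tables. All 10 were listed. Poly(A) RNA was sequenced from the hearts of 3 young mice and 3 old mice, and the series title places the comparison in cardiac hypertrophy with age. Every mouse is labelled wild type and untreated. The labels give neither the ages in months nor the strain or sex. Mice are numbered 1 to 3 in each group and were taken as separate animals.

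Cytokines of this family signal through receptor complexes that share Il6st, also known as gp130. IL-6 binds Il6ra, LIF binds Lifr and oncostatin M binds Osmr, each together with Il6st, and Janus kinases on the complex then phosphorylate STAT3, which enters the nucleus and activates genes. Socs3 is one of those genes, and its protein binds gp130 and the kinases and shuts the signal down. Socs2 and Cish are feedback genes better known downstream of STAT5 and growth hormone. In the heart, gp130 signalling is known for growth and survival effects on cardiomyocytes.

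The stretch before the start of Socs3 holds a STAT-type palindrome, and it is shown beside those of Il6 and Stat3, the ligand gene and the factor gene of the pathway. The sequences are the 250 bases upstream of the RefSeq gene start in build GRCm38.p6, whereas the submitters' processing notes name GRCm39. The Socs3 window lies at chr11:117969367-117969616 on the minus strand, the Il6 window at chr5:30012864-30013113 on the plus strand and the Stat3 window at chr11:100939541-100939790 on the minus strand. Capitals mark matches to the motifs searched on both strands, which were TTCNNNGAA for STAT factors, TGANTCA for AP-1 and, for NF-kB, GGG followed by any 2 bases and TTTCC.
Socs3: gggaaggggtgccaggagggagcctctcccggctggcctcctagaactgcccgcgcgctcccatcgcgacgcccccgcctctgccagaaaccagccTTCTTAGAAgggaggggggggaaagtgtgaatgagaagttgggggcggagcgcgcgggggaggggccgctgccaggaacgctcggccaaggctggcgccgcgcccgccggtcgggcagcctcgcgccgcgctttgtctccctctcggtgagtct
Il6: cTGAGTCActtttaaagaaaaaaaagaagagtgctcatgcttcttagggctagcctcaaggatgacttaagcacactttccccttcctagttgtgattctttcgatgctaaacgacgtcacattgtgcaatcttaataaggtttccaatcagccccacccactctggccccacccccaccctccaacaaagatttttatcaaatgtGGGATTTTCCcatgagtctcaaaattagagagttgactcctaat
Stat3: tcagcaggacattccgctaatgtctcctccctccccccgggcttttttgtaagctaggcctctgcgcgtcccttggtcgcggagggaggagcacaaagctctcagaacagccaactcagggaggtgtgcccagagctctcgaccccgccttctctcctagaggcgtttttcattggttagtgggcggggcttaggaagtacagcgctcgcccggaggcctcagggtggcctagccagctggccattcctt

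In Socs3 the match is TTCTTAGAA, at bases 154 to 146 before the start, and it was the single STAT-type match among the members with a window. Of all 32851 RefSeq windows of this length, 7.02% held TTCNNNGAA. The Il6 window held TGAGTCA, an AP-1 match found in 6.75% of windows by that motif, and GGGATTTTCC, an NF-kB match found in 1.41%. The Lif window held 1 AP-1 match, and the windows of Stat3, Osmr, Il6st, Il6ra, Lifr and Cish held none of the 3 motifs. These are matches of letters and do not show binding. For Socs2 no window was used here.

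Socs3 rose 3.45-fold in old hearts, Stat3 rose 1.35-fold, and Osmr rose by a smaller amount that depended on the fit. The shared receptor gene Il6st, the ligand-binding receptor genes Il6ra and Lifr, the ligand gene Lif and the feedback genes Socs2 and Cish did not pass the test. Il6 itself was almost absent from young hearts and too sparse for the filter on low counts. So 9 of 10 members were tested, of which 3 rose and 0 fell, against 11.4% of all 12893 tested genes called higher, 10.6% called lower and 22% called in either direction by edgeR at an adjusted p under 0.05. With library size alone as scaling, 32.7% of all calls were higher in old hearts, with upper-quartile factors 40.2%, and with the TMM factors used here 51.7%. The median log2 fold change was 0.28 over the tested members and -0.01 over all tested genes. The young and old libraries did not overlap for 4 of the 9 tested members, namely Il6st, Osmr, Stat3 and Socs3, against 39.9% of all tested genes. In whole tissue, fewer cells of a type and less RNA per cell cannot be told apart.

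**Figure D1:**
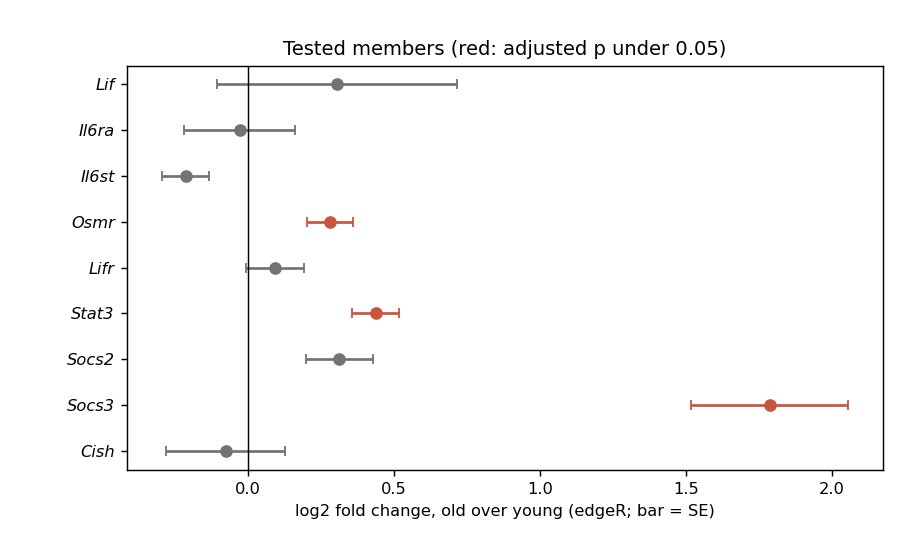
Log2 fold change of old over young hearts on the x axis for the 9 tested members, with points for the edgeR estimate and bars for the SE. Socs3 stands at 1.79, Stat3 at 0.44 and Osmr at 0.28 (red, called), and Il6st is the lowest at -0.21 (grey, not called).

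Among the ligands, Il6 was sparse and uneven. Its raw counts were 0, 0 and 2 in the young libraries 1 to 3, and 9, 1 and 26 in the old libraries 1 to 3. Old 3 alone held 72.2% of the old counts, and old 2 lay below young 3 in raw counts, so the groups overlapped. Over the groups the depth-scaled ratio of old to young was 19.4, with an exact 95% interval of 5.0 to 166 that covers counting error only; without old 3 it was 8.11 (1.73 to 76.2). The edgeR filter left Il6 out. With no filter the fitted log2 change was 4.04 in edgeR (adjusted p = 0.015) and 4.29 in DESeq2 (adjusted p = 0.014), while limma on log2(FPKM + 0.1) did not call it (adjusted p = 0.17). The unfiltered edgeR call was lost without young 1 (adjusted p = 0.052), young 2 (0.14), old 1 (0.073) or old 3 (0.14). It held without old 2 and without young 3, but in the latter fit both remaining young libraries were at 0 counts, so no fold is given.

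Lif, which encodes leukemia inhibitory factor, was as sparse but even. Its counts were 6, 7 and 14 in young 1 to 3 and 8, 12 and 11 in old 1 to 3. The old values lie inside the young range, and the log2 fold change was 0.31 ± 0.41 (SE, edgeR adjusted p = 0.63). The depth-scaled ratio of the group counts was 1.24, with an exact 95% counting interval of 0.715 to 2.16.

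The receptors differed in level and in direction. Il6st, the shared signalling receptor, stood at 269, 259 and 266 CPM in young 1 to 3 and at 217, 224 and 244 CPM in old 1 to 3. CPM here are counts scaled to a common library total with TMM factors. Every old library lay below every young one. The log2 fold change was -0.21 ± 0.08 and missed the threshold (edgeR adjusted p = 0.081). It passed as lower without old 3 (-0.26, adjusted p = 0.041), with upper-quartile factors (adjusted p = 0.039), with library size alone (adjusted p = 0.024) and with limma on log2(FPKM + 1) (adjusted p = 0.033).

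Osmr, which encodes the oncostatin M receptor, stood at 33.6, 31.5 and 31.4 CPM in young 1 to 3 and at 37.6, 40.5 and 39.2 CPM in old 1 to 3. All 3 old libraries lay above the young ones, by a narrow margin. Its log2 fold change was 0.28 ± 0.08 (edgeR adjusted p = 0.027). The call was held without old 1 or old 3 and lost without young 1, young 2, young 3 or old 2, with adjusted p between 0.035 and 0.091 when a library was left out. It was also lost with DESeq2 (adjusted p = 0.086), upper-quartile factors (0.054), library size alone (0.095) and limma on log2(FPKM + 1) (0.11) or log2(FPKM + 0.1) (0.18).

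Lifr, the receptor gene for leukemia inhibitory factor, stood at 53.0, 55.6 and 56.4 CPM in young and at 50.9, 58.2 and 66.8 CPM in old 1 to 3. The old libraries spread on both sides of the young ones, and the log2 fold change was 0.09 ± 0.10 (edgeR adjusted p = 0.54). Il6ra, the alpha chain that binds IL-6, was the lowest of the 4 receptor genes at 7.11, 7.47 and 10.2 CPM in young and 9.74, 8.30 and 6.33 CPM in old 1 to 3. The ranges overlap throughout (log2 fold change -0.03 ± 0.19, edgeR adjusted p = 0.93). An antisense gene overlaps exons of Il6ra in the GENCODE vM21 gene models, and whether the counting used strand is not given in the sources used here.

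Stat3, the main transcription factor of the pathway, stood at 131, 124 and 138 CPM in young 1 to 3. In old 1 to 3 it stood at 183, 179 and 169.6 CPM. The old libraries all lay above the young ones and close to each other. Stat3 rose by 0.44 ± 0.08 on the log2 scale, or 1.35-fold (edgeR adjusted p = 0.0031). Whichever library was left out, the log2 fold change lay between 0.40 and 0.48 and the call held (adjusted p at most 0.023). Of the 16 alternative fits, 15 called it, the exception being limma on log2(FPKM + 0.1) (adjusted p = 0.058). In the same gene models Stat3 shares exon sequence with Stat5a on the opposite strand, and the Stat5a difference was 0.23 ± 0.12 on the log2 scale (edgeR adjusted p = 0.2).

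Socs3, whose protein blocks gp130 signalling, had the largest change of the tested members. It stood at 9.21, 8.35 and 8.05 CPM in young 1 to 3 and at 22.1, 20.5 and 45.8 CPM in old 1 to 3. Every old library lay well above the young ones, and old 3 lay far above the other two old libraries. Socs3 rose by 1.79 ± 0.27 on the log2 scale, or 3.45-fold (edgeR adjusted p = 0.00085). Without old 3 the log2 fold change was 1.33 (adjusted p = 1.1e-05), and over all 16 alternatives it lay between 1.33 and 2.0 and was called in each.

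**Figure D2:**
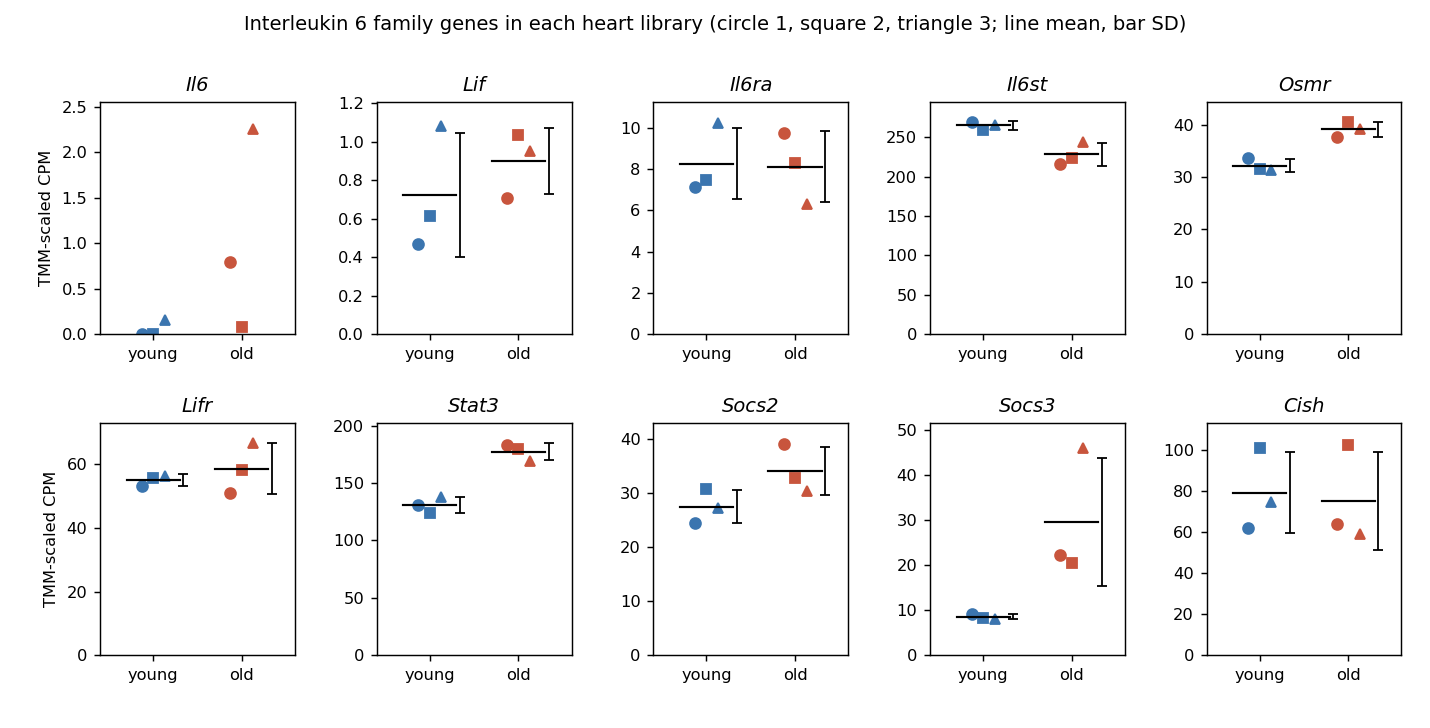
TMM-scaled CPM (y axis, from 0, a separate scale for each gene) of the 10 members in young (blue) and old (red) hearts, with circles, squares and triangles for mice 1, 2 and 3, lines for means and bars for SD (points only for Il6). Old 3 is the highest library for Socs3 at 45.8 and for Il6, and the Stat3 values of 169.6 to 183 in old hearts all lie above the young ones.

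The other feedback genes did not pass. Socs2 stood at 24.5, 30.7 and 27.2 CPM in young 1 to 3 and at 39.0, 32.8 and 30.3 CPM in old 1 to 3. Old 3 lay just below young 2, so the groups overlapped. Its log2 fold change was 0.31 ± 0.11 (edgeR adjusted p = 0.07), and it passed without young 2 (0.40, adjusted p = 0.049) or old 3 (0.40, adjusted p = 0.026). Cish stood at 62.2, 101 and 74.7 CPM in young and at 63.9, 102 and 59.0 CPM in old 1 to 3. Library 2 was the highest in both groups, and the log2 fold change was -0.08 ± 0.20 (edgeR adjusted p = 0.82). In GENCODE vM21 an antisense gene overlaps Cish as well, and so does a transcribed pseudogene on the opposite strand.

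Levels can be compared between genes only per length, in the deposited FPKM (counts divided by gene length and library total). In young hearts Il6st was highest at 45.8 to 49.2 FPKM, followed by Stat3 at 27.5 to 31.3, Cish at 18.6 to 29.2, Osmr at 6.27 to 6.90 and Lifr at 5.14 to 5.42. Socs3 (3.04 to 3.51 FPKM), Il6ra (2.19 to 3.12) and Socs2 (2.13 to 2.57) came next, and Lif and Il6 were below 0.21 FPKM in each young library. Stat3 and Cish overlapped in young hearts, as did Socs3 with Il6ra, Il6ra with Socs2, and Lif with Il6. In old hearts Socs3 had moved from sixth to the fourth place, at 7.15 to 16.6 FPKM, and overlapped Osmr at 7.23 to 7.63. Il6st at 37.0 to 42.3 FPKM and Stat3 at 36.8 to 39.3 overlapped in old hearts, where they did not in young ones. The lengths implied by the tables matter for this order. That of Socs2 was 12005 bases, above the 9531 bases of its exons in GENCODE vM21, while that of Osmr was 5069 against 12113.

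Socs3 took a larger part of the feedback transcripts in old hearts. Its share of the summed FPKM of Socs2, Socs3 and Cish was 14.5%, 8.82% and 11.1% in young 1 to 3 and 27.3%, 18.9% and 46.3% in old 1 to 3. All old shares lay above the young ones, with means of 11.5% ± 2.86 and 30.8% ± 14.03 (SD, n = 3). The exact 2-sided permutation p was 0.1, the smallest that 3 against 3 can give, and 0.3 when adjusted over the 3 ratios computed. Without old 3 the difference of the means was 11.6 percentage points, against 19.4 with all libraries.

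**Figure D3:**
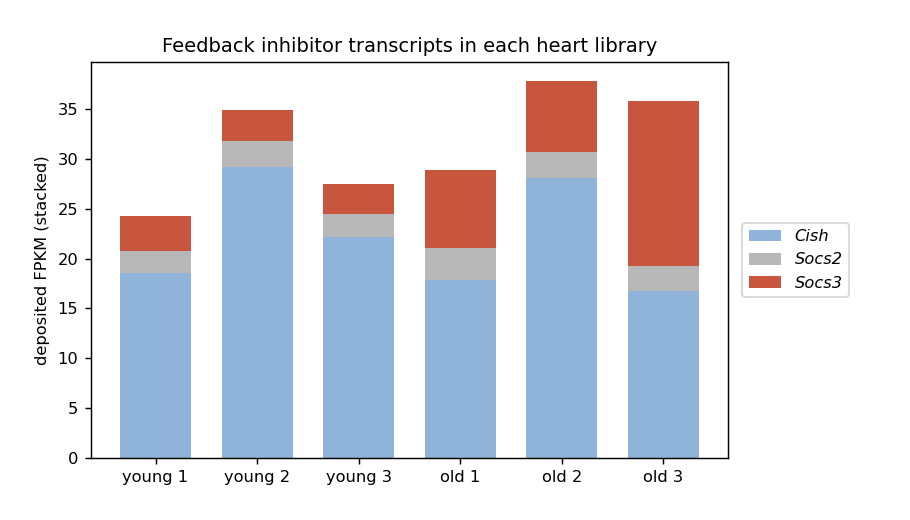
Deposited FPKM (y axis, from 0) of Cish, Socs2 and Socs3 stacked for each of the 6 heart libraries. The red Socs3 part is widest in old 3, where it makes up 46.3% of the stack, and is at most 14.5% in the young libraries.

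The receptor ratios were less separated. The ratio of Osmr to Lifr in FPKM was 1.34, 1.203 and 1.18 in young 1 to 3 and 1.57, 1.48 and 1.24 in old 1 to 3. Old 3 lay below young 1 (exact 2-sided permutation p = 0.2, adjusted p = 0.3). The ratio of Il6ra to Il6st ranged from 0.0446 to 0.0650 in young and from 0.0438 to 0.0760 in old hearts, with full overlap (exact 2-sided permutation p = 0.7, adjusted p = 0.7).

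Other genes of the pathway, from lists chosen for this comparison, mostly did not pass the test, apart from the targets of STAT3. Of 16 other ligand, receptor and shedding genes, 14 were listed and 9 tested, and edgeR, DESeq2 and limma-voom called 0 of them. Of all tested genes edgeR called 22%. In edgeR 0 had an unadjusted p under 0.05. Il11ra1, the interleukin 11 receptor gene, averaged 80.7 ± 3.99 CPM over the young libraries and 79.6 ± 0.927 CPM over the old ones (SD, n = 3, log2 fold change -0.02 ± 0.08, edgeR adjusted p = 0.88), although reads shared with its near-identical copies make its count uncertain. Adam10, a protease that sheds membrane receptors, did not pass either (-0.08 ± 0.10 on the log2 scale, edgeR adjusted p = 0.6).

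Among the genes for Janus kinases and other STAT factors, Jak1, the kinase bound to gp130, did not pass (-0.07 ± 0.08 on the log2 scale, edgeR adjusted p = 0.58). Stat6, the factor of interleukin 4 signalling, did not pass either (0.07 ± 0.10, edgeR adjusted p = 0.64). With all libraries 0 of the 9 tested genes of this list were called higher by edgeR, against 11.4% of all tested genes. The list is too short to set 0 apart from that share. Without old 3 Stat4 was tested and called higher. With all libraries the filter left it out, at 3, 4 and 4 counts in young 1 to 3 and 11, 11 and 5 in old 1 to 3. Without old 3 it passed the filter through old 1 and old 2, where it was high, so no weight is placed on that call.

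Of 20 other restraining genes (SOCS, PIAS, phosphatase and ubiquitin ligase genes), all were tested, 1 rose and 0 fell. Of all tested genes 11.4% were called higher and 10.6% lower. In edgeR 5 of the 20 had an unadjusted p under 0.05, and the number called changed between fits. Socs5 stood at 33.7, 37.7 and 35.1 CPM in young 1 to 3 and at 50.6, 46.1 and 47.1 CPM in old 1 to 3. The old libraries lay above all young ones, and Socs5 rose by 0.43 ± 0.08 on the log2 scale (edgeR adjusted p = 0.0035). Ptpn11, the phosphatase gene for SHP2, had -0.04 ± 0.11 (edgeR adjusted p = 0.8) and Elob, an adaptor of SOCS ubiquitin ligases, 0.14 ± 0.09 (edgeR adjusted p = 0.28). Without young 2 or old 3 Eloc was called higher too, and without old 2 Ptpn1. Without old 2 or old 3, 1 gene was called lower, Socs6 and Pias3 respectively. These genes were named after their values were seen.

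Genes known as STAT3 targets rose in larger numbers. Of 23 on the list, 22 were tested, 15 rose and 1 fell. Of all tested genes 11.4% were called higher and 10.6% lower. The median of their log2 fold changes was 0.80, against -0.01 over all tested genes. Many of these genes also answer to other factors, and the list was written with earlier results of these data known. Cebpb, a C/EBP transcription factor gene, stood at 22.4, 33.998 and 29.9 CPM in young 1 to 3 and at 105, 95.6 and 91.0 CPM in old 1 to 3. It rose by 1.76 ± 0.13 on the log2 scale (edgeR adjusted p = 6.8e-06). Bcl2l1, which encodes the survival protein BCL-xL, rose by 1.09 ± 0.10 (edgeR adjusted p = 2.1e-05), and the metallothionein gene Mt2 by 1.27 ± 0.18 (edgeR adjusted p = 0.00063). Hif1a, the oxygen-regulated transcription factor gene, fell by 0.58 ± 0.08 (edgeR adjusted p = 0.00035), from 94.0 to 98.8 CPM in young to 61.4 to 66.9 CPM in old hearts. The number of higher genes was 9 without young 2 and 7 without young 3, and 7 genes were called higher whichever library was left out (Bcl2l1, Cebpb, Cebpd, Icam1, Il4ra, Junb and Mt2). Without old 3 it was 13, and 2 fell, Hif1a and Pim1. With limma on log2(FPKM + 0.1) the count of higher genes was 3.

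**Figure D4:**
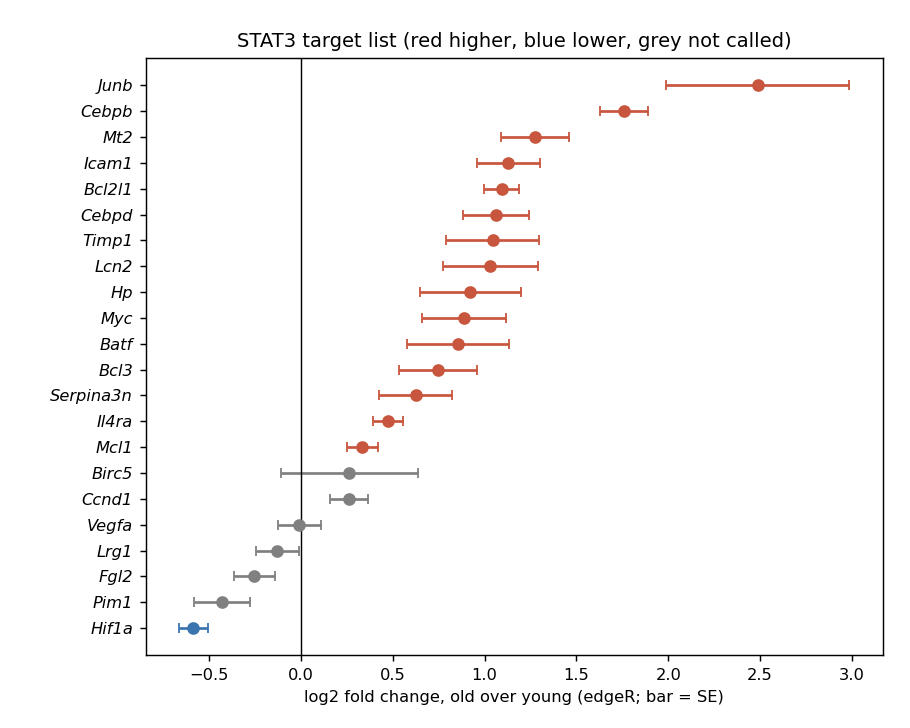
Log2 fold change of old over young hearts (x axis, edgeR estimate with SE bars) for the 22 tested genes of the STAT3 target list, ordered by value. The 15 called higher are red, Hif1a at -0.58 is blue and the 6 not called are grey.

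Among 18 genes of growth hormone and cytokine signalling that runs through STAT5, 17 were tested, 5 rose and 0 fell. The shares over all tested genes were 11.4% higher and 10.6% lower. The median of their log2 fold changes in this list was 0.11, against -0.01 over all tested genes. Prlr, the prolactin receptor gene, stood at 5.39, 4.66 and 6.89 CPM in young 1 to 3 and at 14.3, 14.2 and 12.8 CPM in old 1 to 3, a rise of 1.28 ± 0.15 (log2, edgeR adjusted p = 0.00018). Il15, a cytokine gene, rose by 0.53 ± 0.08 (edgeR adjusted p = 0.001), Igfals, which encodes a carrier of insulin-like growth factors, by 0.81 ± 0.17 (edgeR adjusted p = 0.0053) and the receptor gene Il7r by 1.33 ± 0.34 (edgeR adjusted p = 0.017). Il7r was sparse, at 12, 6 and 8 counts in young 1 to 3 and 25, 18 and 18 in old 1 to 3. It passed the filter through the old libraries, where it was high, so little weight is placed on its call. Without young 2, young 3 or old 1, 3 genes were called (Igfals, Il15 and Prlr), so that Il7r and Il2rg were lost.

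Immediate early genes, which switch on within minutes of a stimulus, were also higher in old hearts. Of 25 on the list, 22 rose and 0 fell, against 11.4% of all tested genes called higher and 10.6% lower. Among those called, Fosl1 had 1, 2 and 1 counts in young 1 to 3 and 28, 15 and 20 in old 1 to 3. It passed the filter through the old libraries only. The median change of the list was 2.30 on the log2 scale, against -0.01 over all tested genes. The summed level of the list was 638, 1061 and 1092 CPM in young 1 to 3 and 2442, 2585 and 5804 CPM in old 1 to 3. Old 3, the library with the highest Socs3 and Il6, had the highest sum. Of the old libraries it was the highest for 20 of the 25 genes and the lowest for 3, Fosl2, Maff and Nr4a3. Among the other libraries the order differed from that of Socs3: young 1 had the highest young Socs3 and the lowest sum. The Socs3 values ordered there were close to each other, at 8.05 to 9.21 CPM in young and 22.1 and 20.5 CPM in old 1 and old 2. Nr4a3, a nuclear receptor gene, rose by 4.80 ± 0.27 (log2, edgeR adjusted p = 1.3e-06), and Fosl2, Ier5 and Fosb rose by 1.87 ± 0.11, 1.56 ± 0.09 and 4.09 ± 0.25. The part of these genes' change in the Socs3 and Il6 values was not tested.

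Markers of the cells a heart sample can hold gave these levels beside the members, as summed CPM per list. The counts of called markers stand beside 11.4% of all tested genes called higher and 10.6% called lower. Macrophage and leukocyte markers (7 tested, 3 higher and 1 lower) ranged from 358 to 379.7 in young and from 379.3 to 451 in old hearts, and fibroblast markers (6 tested, 1 higher and 1 lower) from 1380.0 to 1436 and from 1373 to 1714. Endothelial markers (6 tested, 0 higher and 1 lower) ranged from 1609 to 1838 and from 1311 to 1696. Cardiomyocyte markers (7 tested, 2 higher and 0 lower) ranged from 63115 to 66925 and from 75165 to 77864. Of these cardiomyocyte genes Actc1, with means of 8207 CPM in young and 17339 CPM in old hearts, and Tnni3 were called higher. Myh6, Ryr2, Myl2, Mb and Tnnt2 were not called (log2 fold changes -0.02, -0.04, -0.10, 0.14 and 0.23). Neutrophil markers ranged from 9.67 to 18.8 and from 8.90 to 10.8, with Ly6g at 1 count in all 6 libraries together, and T and B cell markers from 5.54 to 7.38 and from 5.88 to 13.2. Fibroblast and T and B cell markers were highest in old 3. Red blood cell markers ranged from 2160.5 to 16066 in young and from 3191 to 6797 in old hearts. The sums of smooth muscle markers (6 tested, 2 higher and 0 lower) and epicardial markers (5 tested, 1 higher and 0 lower) overlapped between groups. Single genes did not: Wt1 rose 3.19-fold (edgeR adjusted p = 8.2e-06) and Acta2 1.71-fold (edgeR adjusted p = 0.016), and Tagln was called as well. The median log2 fold change was -0.01 for the smooth muscle list and -0.56 for the epicardial list. The other tested epicardial genes, Upk3b, Msln, Lrrn4 and Upk1b, were not called (-0.56, -0.97, -0.90 and -0.08). In the smooth muscle list Rgs5, Myh11, Kcnj8 and Abcc9 were not called (0.09, -0.10, -0.27 and -0.22). In the T and B cell list (5 tested, 1 higher and 0 lower) Cd3e was called higher. Cd3e was sparse, at 3, 7 and 3 counts in young 1 to 3 and 12, 11 and 14 in old 1 to 3. It passed the filter through the old libraries, where it was high, so no weight is placed on its call. Cd3d, at 5, 4 and 4 counts in young and 14, 7 and 10 in old 1 to 3, was left out by the filter. In the red blood cell list (5 tested, 0 higher and 1 lower) Hba-a2 was called lower. Adipocyte markers stayed at or below 2.64, and lung and thymus markers at or below 1.47, with Dntt at 0. The part of any cell type in the results for the members was not tested.

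For the called members, the 3 genes of most similar profile were found by the root mean square difference in log2 CPM, centred on the mean of the 6 libraries. For Socs3 they were Nfkbiz (difference 0.12), Cd209f (0.17) and Sfrp5 (0.21). Nfkbiz, which encodes a nuclear protein of the I-kappa-B family, stood at 4.37, 3.34 and 3.72 CPM in young 1 to 3. In old 1 to 3 it stood at 10.7, 7.95 and 19.3 CPM. It was picked for its likeness to Socs3 over these libraries, so its high value in old 3 is no separate observation. For Stat3 they were Zfp207 (0.02), Cd151 (0.03) and Kcnn2 (0.04), and for Osmr Aldoa (0.02), Vma21 (0.02) and Pcyt2 (0.02).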

How the data were processed

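The members, the lists and the tests were chosen with earlier results of these data known. Counts are whole reads per gene as deposited by the authors, with library totals of 11295280 to 12514005, so that 1 count is worth 0.0774 to 0.0885 CPM. FPKM values were deposited by the authors and equal the counts divided by 1 length per gene and by the library total. The build GRCm39 and the tools HTSeq, HISAT2, Bowtie2, StringTie, Cufflinks, DESeq and Trimmomatic are listed in the submitters' processing notes. Their roles, their versions and the strand setting of the counting were not given in the sources used here.

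Genes were tested with edgeR 4.0.16 (R 4.3.3), filterByExpr, TMM factors and the quasi-likelihood F test over all 6 libraries, with Benjamini-Hochberg adjustment over the 12893 genes tested. SE were derived from the fold change and F. Lists are described by counts and medians. The genes named were all members, the 4 called genes of smallest p per list (or also the 2 of highest FPKM where fewer than 2 were called) and the 3 nearest profiles of each called member (pseudocount 0.5); others were named after their values were seen. Alternatives were other scalings, filters, DESeq2 1.42.0, limma 3.58.1 with voom and on FPKM, a replicate block and each library left out. Fits of Il6 with no filter and each library left out were chosen after seeing the data. Of the kinase and STAT list, 1 gene is not reported here.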

Additional observations from a re-analysis of the deposited data

How the results depend on the processing

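Socs3 was called by each of the 16 alternative fits, Stat3 by 15, Osmr by 7, Il6st by 4 and Socs2 by 2, and Il6ra, Lifr and Cish by none; Lif was called by none of the 14 that tested it. The count of members called higher was 1 with limma on log2(FPKM + 0.1), and that called lower was 1 (Il6st) with upper-quartile factors, library size alone and limma on log2(FPKM + 1). With a library left out they ranged from 2 to 4 and from 0 to 1. The restraining genes called higher numbered 2 with the replicate block and with limma-voom and 0 with limma on log2(FPKM + 0.1) (1 to 2 with a library left out), and those called lower 1 with library size alone (0 to 1). STAT3 targets called higher numbered 3 with limma on log2(FPKM + 0.1) (7 to 13 with a library left out), and those called lower 2 with upper-quartile factors, library size alone and no filter (1 to 2). STAT5-related genes called higher numbered 2 with limma on log2(FPKM + 1) (3 to 5). Kinase and STAT genes called higher ranged from 0 to 1. Fewer libraries enter a fit with a library left out, and the cause of these differences was not tested. The labels do not say that the mouse numbers pair animals. The correlations of deviations between same-numbered mice were 0.08, 0.07 and 0.01, and not every library correlated best with its own number. With the replicate block 2734 genes were called, against 2835, and the same 3 members rose. The whole-table count was 1557 without young 1, 2450 without young 2 and 1552 without young 3. It was 1918 without old 1, 2476 without old 2 and 3041 without old 3, the last above the count with all libraries. With limma on log2(FPKM + 0.1) it was 1370. Depth limits Il6 and Lif, with 38 and 58 counts in all 6 libraries.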

Other observations

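Of the other ligand and receptor genes of the family, 5 listed genes were left out by the filter on low counts and are given as raw counts. Osm, which encodes oncostatin M, the ligand of Osmr, had 5, 3 and 0 counts in young 1 to 3 and 6, 5 and 8 in old 1 to 3. Il11 had 0, 2 and 2 counts in young and 7, 0 and 3 in old 1 to 3. Cntf, which encodes ciliary neurotrophic factor, had 11, 8 and 10 counts in young and 9, 5 and 7 in old 1 to 3. Il27 had 1, 1 and 0 counts in young and 1, 0 and 1 in old 1 to 3, and Il31ra 1, 1 and 0 in young and 0 in each old library. Osm and Il11 had more counts in the old group, and Cntf fewer. No test was made on these counts.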
